A study of Mus musculus with 15 samples.

Results

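The 9 genes described here are known for their quick transcription after engagement of an antigen receptor: the zinc finger factors Egr1, Egr2 and Egr3, the nuclear receptors Nr4a1, Nr4a2 and Nr4a3, the EGR corepressor Nab2, and the immediate early response genes Ier2 and Ier5. They were listed by name, and all 9 were found among the 54838 gene IDs of the count table. RNA was sequenced from 15 libraries of mouse splenic B cells in 5 groups of 3, lettered A, B and C. All groups came from wild-type male mice, 3 months old, given sheep red blood cells (SRBC), an antigen that drives germinal centres, with spleens taken on day 9. The activated libraries came from naive B cells kept for 5 days in embryonic stem cell medium (KO-DMEM) with stimuli, and both medium and stimuli were renewed on day 3. The titles give 3 activated groups, namely antibody to CD40 (5 µg/ml, with IL-4 at 80 ng/ml), CpG oligonucleotide (2 µM) and lipopolysaccharide, or LPS (25 µg/ml). The labels can be read either way on whether cells given CpG or LPS received IL-4 too. The germinal centre (GC) and naive libraries came from cells sorted after magnetic enrichment for B220 and were taken as uncultured from their labels, although the series text can be read otherwise. The labels tie the letters to no animals and do not mention pooling, so the p-values here rest on the spread among libraries that may not be independent.

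When an antigen receptor signals, ERK kinases act through the serum response factor and its ELK partners, and calcium acts through calcineurin, NFAT, MEF2 and CREB coactivators. The EGR and NR4A genes are transcribed within minutes from these pathways without new protein synthesis. In B cells Nr4a1 serves as a reporter of recent antigen receptor signalling, and NAB2 binds EGR proteins and represses their targets. CD40 and the Toll-like receptors, which sense CpG and LPS, signal chiefly through NF-kB and also reach ERK.

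Upstream sequence is shown for 4 of the genes because their windows hold motifs of the factors that receive these signals. RefSeq (GRCm38.p6) promoter entries were matched for 6 members, and none were found for Egr1, Egr3 and Ier2. Egr2 has 5 start sites, and only that of the transcript marked as principal in GENCODE was used. The 250 bases before the start used were searched on both strands for 8 motifs, and other Egr2 starts were not searched. Capitals mark the core CGTCA of the cyclic AMP response element (either strand, thus also TGACG) and the CArG box bound by serum response factor. The Egr2 window was chr10:67537619-67537868 on the plus strand, that of Nr4a1 chr15:101266596-101266845 (plus), that of Nr4a2 chr2:57124004-57124253 (minus), and that of Nr4a3 chr4:48045055-48045152 (plus). The Egr2 and Nr4a1 windows lie inside the annotated span of their genes, upstream of an internal start and outside annotated exons. The Nr4a3 window is given up to the first annotated exon and so runs to 98 bases.
Egr2: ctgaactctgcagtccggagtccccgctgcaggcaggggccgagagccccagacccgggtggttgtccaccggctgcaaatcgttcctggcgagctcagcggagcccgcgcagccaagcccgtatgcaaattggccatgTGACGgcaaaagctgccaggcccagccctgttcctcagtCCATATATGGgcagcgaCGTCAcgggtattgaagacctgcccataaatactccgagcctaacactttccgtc
Nr4a1: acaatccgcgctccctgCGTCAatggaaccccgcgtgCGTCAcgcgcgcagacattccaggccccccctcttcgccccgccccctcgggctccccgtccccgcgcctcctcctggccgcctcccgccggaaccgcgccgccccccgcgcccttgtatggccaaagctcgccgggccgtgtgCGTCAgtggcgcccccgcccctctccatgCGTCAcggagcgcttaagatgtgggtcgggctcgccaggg
Nr4a2: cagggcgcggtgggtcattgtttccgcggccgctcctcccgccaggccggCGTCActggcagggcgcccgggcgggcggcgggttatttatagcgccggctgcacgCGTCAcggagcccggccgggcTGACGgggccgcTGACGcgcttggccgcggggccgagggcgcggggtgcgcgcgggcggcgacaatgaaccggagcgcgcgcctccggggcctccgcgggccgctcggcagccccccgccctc
Nr4a3: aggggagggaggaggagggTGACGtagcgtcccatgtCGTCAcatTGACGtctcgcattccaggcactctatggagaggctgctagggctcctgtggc
The CGTCA core occurred 2 times in the Egr2 window and 4 times in each of the windows of Nr4a1, Nr4a2 and Nr4a3, the Nr4a3 count being over its full 250 bases. It was absent from those of Nab2 and Ier5. Of 32851 promoter windows of the same length, 17.8% hold it. The full element TGACGTCA, which contains the core, was in none of the 6 windows and in 1.55% of all. The CArG box lay at positions -72 to -63 of the Egr2 window alone among the 6, and 1.47% of all windows hold one. The Nr4a1 window also held a binding site of the EGR factors themselves (GCGTGGGCG or GCGGGGGCG, in 3.06% of all) and an ETS core (CCGGAA, in 12.0%). The NR4A element AAAGGTCA (1.34% of all), the AP-1 site TGANTCA (6.75%) and the NFAT core GGAAAA (20.4%) were in none of the 6. These are matches of letters and no evidence of binding.

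Libraries held 25397624 to 36272197 counts, and 11523 to 19320 genes had at least 1 count. The GC libraries carried their label's markers: 7 of 7 GC genes were higher and 6 of 6 follicular genes lower than in naive libraries (edgeR, adjusted p under 0.05). Of all genes tested, 17.9% were higher and 16.5% lower. B cell identity genes were lower than in naive cells for 5 of 7 in GC cells. In activated cells 7 of 7 were lower, where 19.4% of all genes were lower. Plasma cell genes summed to 1307 to 1638 CPM in GC and 191 to 243 CPM in naive libraries. The 8 T cell markers summed to 31.96 to 46.4 CPM in activated, 163 to 175 CPM in GC and 57.2 to 74.3 CPM in naive libraries. Most of this was Lck, at 33.3, 165 and 64.2 CPM on average in those groups, while Cd3e and Cd8a had 0 counts in the GC and the naive libraries. Of the 8, 2 were called higher in GC than in naive cells, Lck and Cd28 (log2 fold changes 1.37 and 4.25, adjusted p = 7.56e-05 and 0.0216). None were called lower, and the median log2 fold change of the 8 was -0.38. Activated against naive cells, Cd8a and Cd28 were called higher and Lck lower. Cd8a was also called higher and Lck lower in activated than in GC cells. The part of any of these markers in the members' levels was not tested. The naive libraries stood apart from one another. Naive B had the fewest genes with a count, 11523, against 13920 in naive A and 18866 in naive C, and erythroid markers summed to 298 CPM in naive B, 29.2 CPM in naive A and 3.30 CPM in naive C. Levels are in CPM, read counts relative to library size after TMM scaling. In bulk RNA, fewer cells that express a gene and less RNA per cell cannot be told apart.

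Set against naive B cells, most of the 9 genes were low both in activated and in GC cells, and Egr2 was high in activated cells. In activated cells, taken as the mean of the 3 stimuli, 6 of 9 members were lower than in naive cells and 1 was higher at an adjusted p under 0.05. Of all 17144 genes tested, 19.4% were lower and 23.4% higher in that comparison. In GC cells 7 of 9 were lower than in naive cells and 0 were higher, where 16.5% of all genes were lower and 17.9% were higher. The median log2 fold change of the members was -2.49 in activated and -2.95 in GC cells, both against naive, beside medians over all genes of 0.17 and 0.0031. Both comparisons use the same 3 naive libraries. The fit has no term for the letter and counts the 9 activated libraries as independent, although those of the same letter were alike. Against GC cells, 5 of 9 members were higher in activated cells and 1 was lower, where 19.4% of all genes were higher and 17.7% lower, and the members' median was 0.76, against 0.04 over all genes. Either median involving GC keeps its value when Nr4a2, which had 0 counts in GC, is put at its bound.

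**Figure D1:**
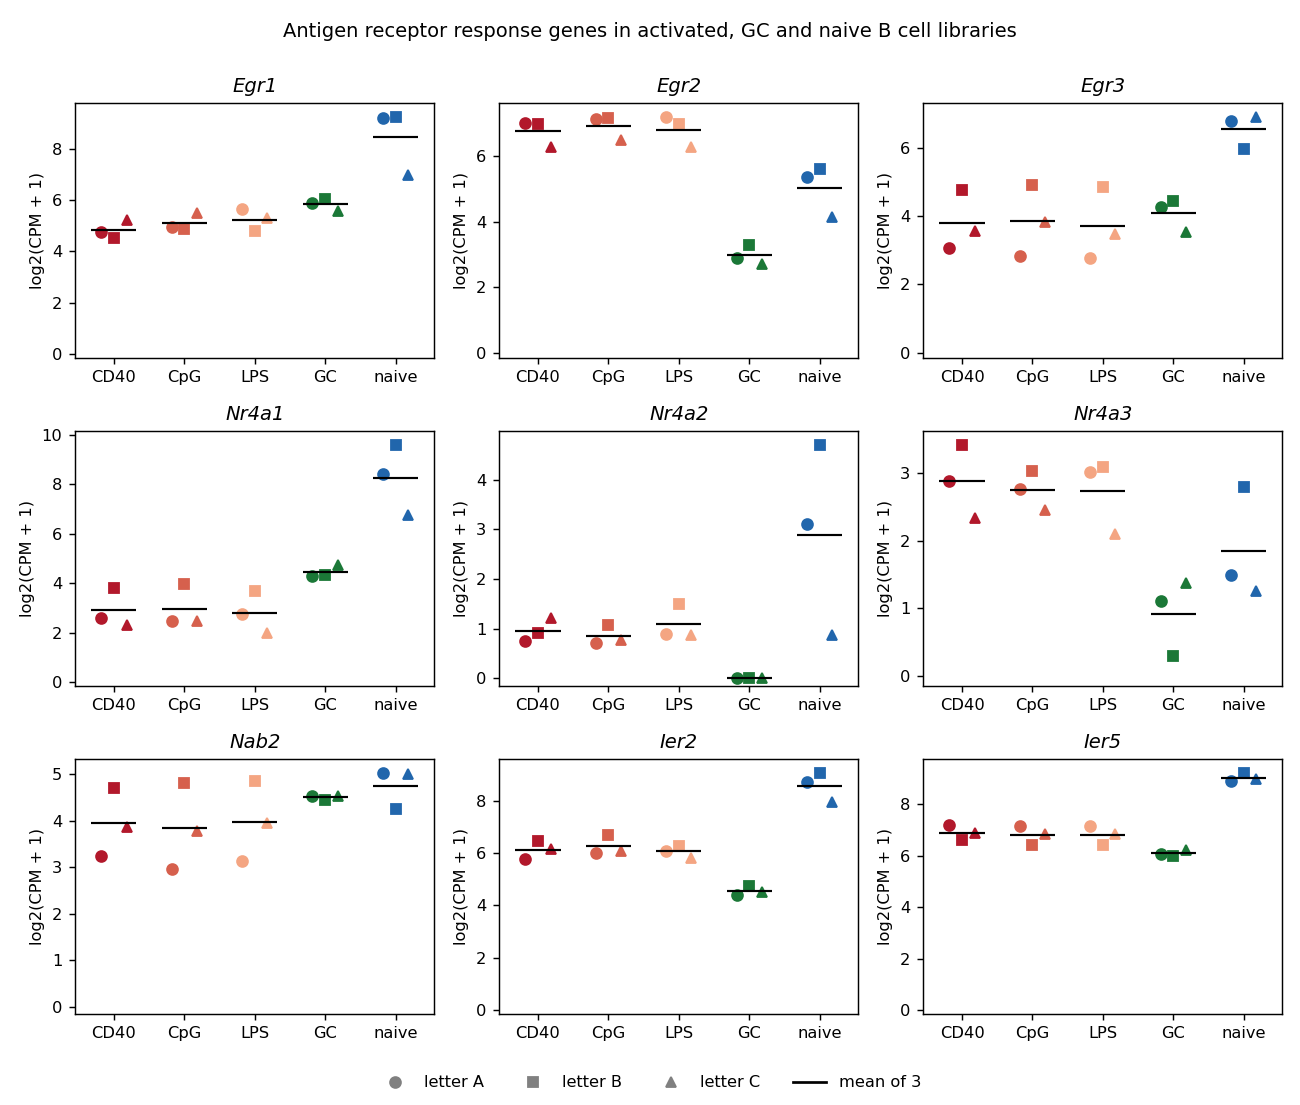
Level of each of the 9 genes as log2(CPM + 1) in each of the 15 libraries, with the 3 activated groups at the left, then GC and naive, shapes for the letters and a bar at the mean of 3 libraries. The activated libraries lie above all naive libraries for Egr2 and below all naive libraries for Egr1, Egr3, Nr4a1, Ier2 and Ier5.

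**Figure D2:**
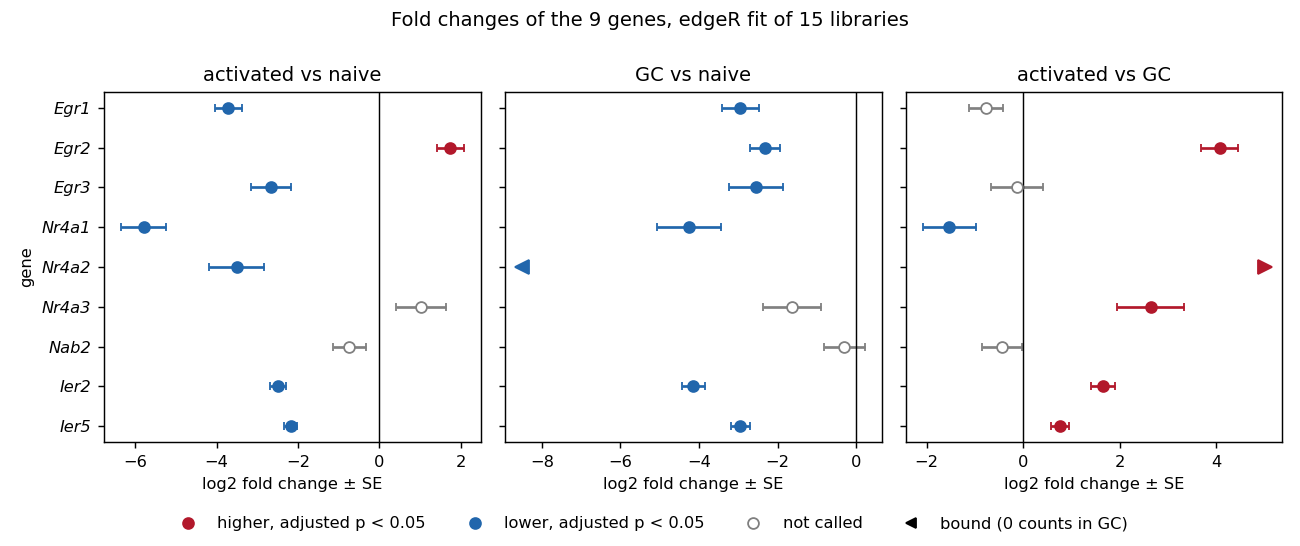
Log2 fold changes of the 9 genes with their SE from the edgeR fit of 15 libraries, for activated over naive, GC over naive and activated over GC. Filled points passed an adjusted p of 0.05, and triangles mark Nr4a2 at its bound, since it had 0 counts in every GC library.

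Egr1 (ENSMUSG00000038418, GRCm38 chromosome 18, 34859823 to 34864984, plus strand) encodes a transcription factor induced chiefly through ERK. It had 22.3, 30.1 and 49.3 CPM as the lowest, median and highest of the 9 activated libraries, 58.3, 65.5 and 46.9 CPM in GC libraries A, B and C, and 587, 602 and 126 CPM in naive libraries A, B and C. Every activated and GC library lay below every naive library. The level was lower than in naive cells by a log2 fold change of -3.72 ± 0.331 (SE) in activated cells (adjusted p = 1.5e-06) and of -2.95 ± 0.479 in GC cells (adjusted p = 0.000356). Between activated and GC cells the difference, -0.77 ± 0.351, did not pass (adjusted p = 0.106).

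Egr2 (ENSMUSG00000037868, chromosome 10, 67535475 to 67542188, plus strand) encodes an EGR factor tied to restraint and peripheral tolerance in lymphocytes, and it was the 1 member called higher in activated than in naive cells. The 9 activated libraries held 76.4 to 146 CPM with a median of 127 CPM, GC libraries A, B and C held 6.50, 8.89 and 5.54 CPM, and naive libraries A, B and C held 40.1, 48.4 and 16.6 CPM. The 3 kinds of cell did not overlap, with activated cells at the top and GC cells at the bottom. The log2 fold change was 1.74 ± 0.328 in activated over naive cells (adjusted p = 0.000702) and 4.07 ± 0.385 in activated over GC cells (adjusted p = 1.79e-06). In GC cells Egr2 was lower than in naive cells by -2.33 ± 0.382 (adjusted p = 0.000292). These 3 calls passed in every alternative fit run.

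Egr3 (ENSMUSG00000033730, chromosome 14, 70077203 to 70082614, plus strand) encodes a factor that shares many targets with EGR2 in lymphocytes. It had 5.84, 10.9 and 29.3 CPM as the lowest, median and highest of the activated libraries, against 109, 61.5 and 118 CPM in naive libraries A, B and C. GC libraries A, B and C had 18.3, 20.5 and 10.7 CPM, within the range of the activated ones. It was lower than in naive cells by -2.67 ± 0.484 in activated cells (adjusted p = 0.000728) and by -2.54 ± 0.688 in GC cells (adjusted p = 0.0122), and did not pass between activated and GC cells (-0.13 ± 0.531, adjusted p = 0.888). The GC call did not pass without GC library A (adjusted p = 0.0506) or without GC library C (adjusted p = 0.0652).

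Per length of annotated exon, joined over all transcripts of a gene, the make-up of the EGR family differed between the groups. On the scale of CPM per kilobase of exon, Egr2 made up 75.1% ± 6.43 of the summed Egr1, Egr2 and Egr3 in activated libraries (SD, n = 9), 11.1% ± 0.978 in GC libraries and 7.99% ± 0.869 in naive libraries (n = 3 each). Its range of 67.1% to 83.5% in activated libraries stood clear of both other groups. Egr1 made up 17.3% ± 6.55, 69.0% ± 2.76 and 69.3% ± 19.4 in activated, GC and naive libraries. The family sum itself was 33.2 to 55.5 CPM per kilobase in activated, 14.5 to 21.9 in GC and 59.9 to 167 in naive libraries, so every activated library lay below every naive one in the sum although Egr2 itself was higher.

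**Figure D3:**
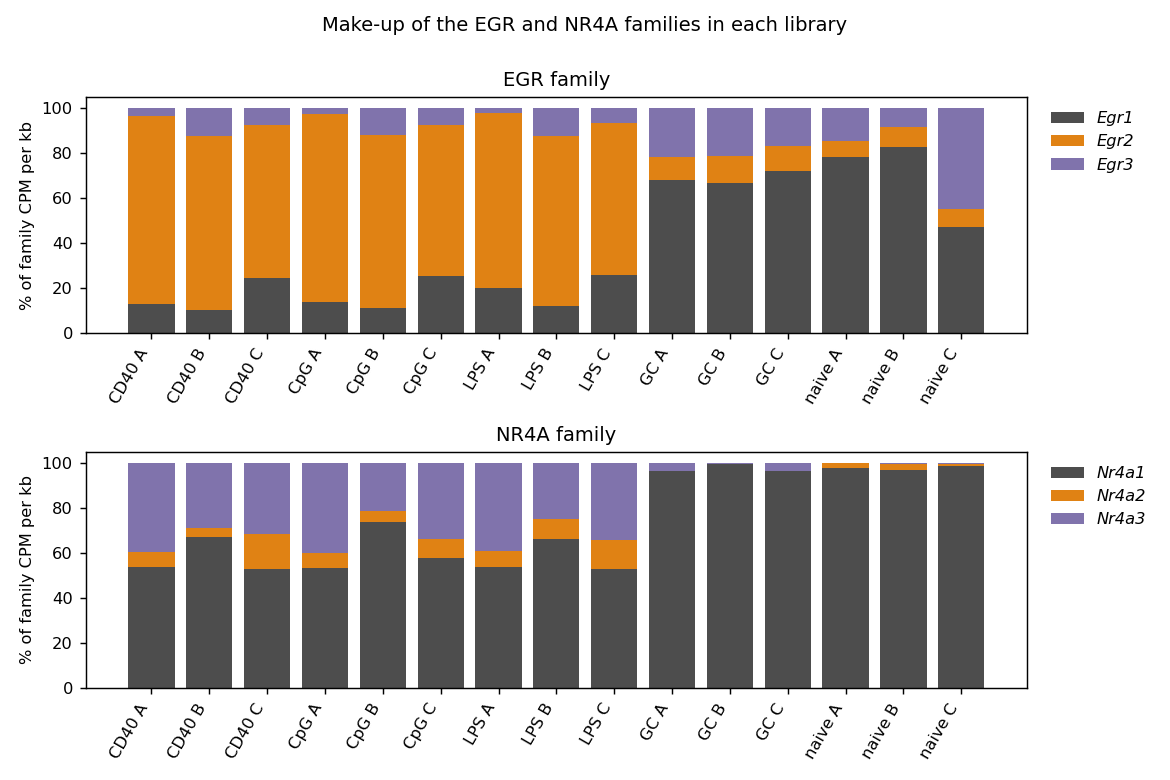
Share of each gene in the sum of its family, as stacked bars in percent of CPM per kilobase of exon, in each of the 15 libraries, for Egr1, Egr2 and Egr3 and for Nr4a1, Nr4a2 and Nr4a3. Egr2, Nr4a2 and Nr4a3 take a larger share in each activated library than in any GC or naive library.

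Nab2 (ENSMUSG00000025402, chromosome 10, 127660918 to 127668568, minus strand) encodes a corepressor of EGR proteins and is itself induced by them. The activated libraries held 6.75 to 27.8 CPM with a median of 13.6 CPM, GC libraries A, B and C held 22.03, 20.7 and 22.1 CPM, and naive libraries A, B and C held 31.4, 17.9 and 30.9 CPM. All 3 kinds of cell overlapped. No comparison of groups passed, at -0.75 ± 0.406 for activated over naive (adjusted p = 0.153), -0.31 ± 0.518 for GC over naive (adjusted p = 0.695) and -0.44 ± 0.413 for activated over GC (adjusted p = 0.449). Nab2 averaged 7.68, 26.6 and 13.6 CPM in activated letters A, B and C, so leaving out letter B lowers the activated mean. Without the 3 libraries of letter B, an alternative chosen after seeing the data, the value was -1.33 against naive cells (adjusted p = 0.00484). Against GC cells it was -1.02 (adjusted p = 0.0232). These p-values follow that choice and decide nothing, and leaving out letter A or C gave no call. Of the 2941 exonic bases of Nab2, 1050 are shared with Gm16229, 151 with Nemp1 and 40 with Stat6, all on the opposite strand. Whether the counting used strand is not stated. Gm16229 had 0 counts in every library, while Nemp1 averaged 28.6, 27.2 and 19.5 CPM and Stat6 181, 109 and 267 CPM in activated, GC and naive libraries. The part of these genes in the Nab2 counts was not tested.

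Among the nuclear receptors, Nr4a1 (ENSMUSG00000023034, chromosome 15, 101254269 to 101274795, plus strand), which encodes Nur77, had the lowest activated level relative to naive cells of the 9 genes. It had 2.94, 5.09 and 14.4 CPM as the lowest, median and highest of the activated libraries, 18.7, 19.3 and 25.3 CPM in GC libraries A, B and C, and 344, 764 and 107 CPM in naive libraries A, B and C. The 3 kinds of cell did not overlap. The log2 fold change against naive cells was -5.79 ± 0.553 in activated cells (adjusted p = 4.68e-06) and -4.26 ± 0.812 in GC cells (adjusted p = 0.00142). Without naive library B these were -4.94 and -3.41, and both passed. Activated cells were below GC cells by -1.53 ± 0.552 (adjusted p = 0.0462), a call that was lost in 13 of 20 alternatives, with adjusted p between 0.00153 and 0.176. Leaving out any 1 of the 3 GC libraries, of the 3 activated libraries A or of the 3 activated libraries C was among them, with adjusted p between 0.0700 and 0.147.

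Nr4a2 (ENSMUSG00000026826, chromosome 2, 57106830 to 57124003, minus strand), which encodes Nurr1, was scarce. It had 0 counts in all 3 GC libraries, which allows up to 0.0305 CPM over the group at a floor of 3 counts. The activated libraries held 0.645 to 1.83 CPM with a median of 0.858 CPM, and naive libraries A, B and C held 7.58, 24.9 and 0.832 CPM. Set against GC cells at that floor, the mean level was at least 32.3-fold higher in activated cells (adjusted p = 0.000951), and GC cells were at least 364-fold lower than naive cells (adjusted p = 0.00012), or at least 138-fold without naive library B. Activated cells were below naive cells by -3.51 ± 0.676 (adjusted p = 0.00111), yet naive library C lay within the range of the activated ones, and without naive library B the value was -2.10 (adjusted p = 0.0239).

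Nr4a3 (ENSMUSG00000028341, chromosome 4, 48045153 to 48086447, plus strand), which encodes NOR1, had its highest levels in activated cells. The activated libraries held 3.27 to 9.68 CPM with a median of 6.39 CPM, GC libraries A, B and C held 1.15, 0.218 and 1.58 CPM, and naive libraries A, B and C held 1.81, 5.91 and 1.39 CPM. Activated and GC libraries did not overlap, and naive library B lay within the activated range. The log2 fold change was 2.64 ± 0.695 in activated over GC cells (adjusted p = 0.00767). Activated over naive was 1.02 ± 0.62 (adjusted p = 0.203) and passed without naive library B (1.94, adjusted p = 0.0223). GC over naive was -1.63 ± 0.738 (adjusted p = 0.103), and -0.71 without naive library B (adjusted p = 0.425).

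Per kilobase, Nr4a3 made up 32.7% ± 6.65 of the NR4A sum in activated libraries, 2.55% ± 1.64 in GC libraries and 0.497% ± 0.229 in naive libraries. Nr4a1 made up 59.1% ± 7.85, 97.4% ± 1.64 and 97.8% ± 0.882 in the same order. Nr4a2 made up 8.19% ± 3.70 in activated, 0% in GC and 1.75% ± 1.04 in naive libraries. Its activated range, 3.94% to 15.3%, also stood clear of both other groups. The NR4A sum ranged over 1.59 to 5.58 CPM per kilobase in activated, 5.53 to 7.47 in GC and 30.95 to 225 in naive libraries. The sums of activated and GC libraries met at their edges, while the share of Nr4a3 in activated libraries, 21.5% to 40.2%, stood clear of both other groups.

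The immediate early response genes Ier2 and Ier5 gave the smallest errors of the 9. Ier2 (ENSMUSG00000053560, chromosome 8, 84661331 to 84662852, minus strand), a short-lived nuclear protein gene, had 53.7 to 101 CPM in activated libraries with a median of 67.2 CPM. GC libraries A, B and C had 20.3, 25.7 and 21.95 CPM, and naive libraries A, B and C had 426, 529 and 247 CPM. None of the 3 kinds of cell overlapped. Ier2 was lower than in naive cells by -2.49 ± 0.196 in activated cells (adjusted p = 1.7e-07) and by -4.15 ± 0.3 in GC cells (adjusted p = 1.13e-07), and higher in activated than in GC cells by 1.65 ± 0.241 (adjusted p = 7.91e-05).

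Ier5 (ENSMUSG00000056708, chromosome 1, 155096361 to 155099636, minus strand) encodes a protein that binds the phosphatase PP2A. It had 83.9 to 147 CPM in activated libraries with a median of 113 CPM, 66.4, 63.4 and 74.8 CPM in GC libraries A, B and C, and 479, 591 and 509 CPM in naive libraries A, B and C. The groups did not overlap. It was lower than in naive cells by -2.18 ± 0.163 in activated cells (adjusted p = 9.78e-08) and by -2.95 ± 0.234 in GC cells (adjusted p = 2.85e-07), and higher in activated than in GC cells by 0.76 ± 0.187 (adjusted p = 0.00474). Of the members lower than naive in both kinds of cell, Nr4a2, Ier2 and Ier5 were thus higher in activated than in GC cells and Nr4a1 was lower.

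The naive libraries differed widely in most of these genes. Egr1, Egr2, Nr4a1, Nr4a2, Nr4a3 and Ier2 were all highest in naive library B and lowest in naive library C. The highest naive library exceeded the lowest 29.9-fold for Nr4a2, 7.14-fold for Nr4a1, 4.77-fold for Egr1, 4.26-fold for Nr4a3, 2.92-fold for Egr2 and 2.14-fold for Ier2. Ier5 spanned 1.24-fold, Nab2 1.75-fold and Egr3 1.92-fold, and Egr3 ran the other way, highest in naive C and lowest in naive B. As a coefficient of variation over the 3 naive libraries, the members ran from 11.1% (Ier5) to 112% (Nr4a2), beside a median of 47.2% over all genes tested. Egr1, Nr4a1, Nr4a2 and Nr4a3 lay above that median, and Egr2 (47.1%), Egr3, Nab2, Ier2 and Ier5 did not. By log2 of the highest over the lowest library (CPM + 1), all members but Ier5 exceeded the median over all genes, 0.762. In GC libraries the members with counts ran from 3.54% (Nab2) to 70.9% (Nr4a3), beside a median of 17.8%.

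Of 17 other immediate early genes, 15 were lowest in naive library C, as were 6 of the 9 members, while 11 were highest in naive B and 6 in naive A. Of 9 heat shock genes 8 were lowest in naive C, and of 21 ERK and calcium signalling genes 12 were lowest in naive B. The order over all genes was not counted, so these counts have no background to be set against. The 9 members summed to 2026 CPM in naive A, 2646 CPM in naive B and 1158 CPM in naive C. The other immediate early genes summed to 10529, 10876 and 4748 CPM in A, B and C. Heat shock genes summed to 5323, 3553 and 2343 CPM, with naive A highest. They summed to 3507 to 4065 CPM in activated and 3513 to 3544 CPM in GC libraries. Of these 9 genes, 3 were higher and 4 lower in activated than in naive cells (23.4% and 19.4% of all genes). In GC cells 2 were higher and 3 lower than in naive cells (17.9% and 16.5% of all genes). The largest log2 fold changes against naive cells were those of Hspa1b (-9.17 in activated, -6.32 in GC cells) and Hspa1a (-9.09 and -6.99). The 6 erythroid markers were highest in naive B, as given above, against at most 0.929 CPM in activated and 4.09 to 7.42 CPM in GC libraries. The 5 neutrophil markers summed to 4.89 CPM in A, 49.9 CPM in B and 0.208 CPM in C of the naive libraries, with Ly6g at 0 counts, and to at most 0.929 CPM in activated and 0.396 CPM in GC libraries. The part of these in the members' levels was not tested. In naive C, Egr1 at 126 CPM and Nr4a1 at 107 CPM lay above each activated and GC library. Nr4a2, at 0.832 CPM, lay within the activated range there, and Nr4a3, at 1.39 CPM, within the GC range.

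**Figure D4:**
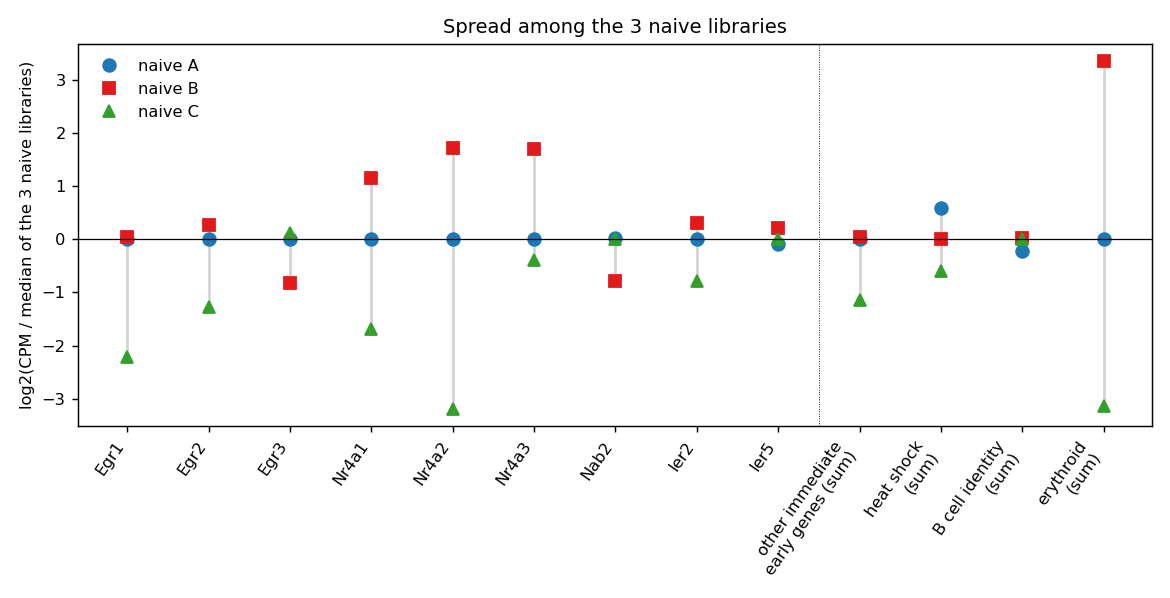
Level of the 9 genes, and of the summed CPM of 4 gene lists, in naive libraries A, B and C, as log2 of CPM over the median of the 3. Naive C lies lowest and naive B highest for Egr1, Egr2, Nr4a1, Nr4a2, Nr4a3 and Ier2, and Ier5 spreads least.

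The titles were taken as given. Because the activated libraries grouped by letter and not by titled stimulus, correct titles and titles in which stimulus and letter changed places cannot be told apart. In the second case each titled stimulus would mix the 3 treatments, and likeness between titled stimuli would say nothing of the treatments. Between the 3 stimuli, 0 of 27 tests of members passed (edgeR), and 0 had an unadjusted p under 0.05. DESeq2 also called 0. Of all genes tested, 0% were called between any pair of stimuli. The largest difference between stimuli was 0.51 on the log2 scale, and SEs in the fit of 15 libraries ran from 0.218 to 0.928. By a pattern noticed after the values were seen, within letters A, B and C Egr1 was lowest with CD40 each time, at 26.2, 22.3 and 36.9 CPM, against 30.1, 28.2 and 44.8 CPM with CpG and 49.3, 26.5 and 38.4 CPM with LPS. Ier5 was highest with CD40 in each letter, at 147, 96.5 and 119 CPM in A, B and C, against 142, 83.9 and 113 CPM with CpG and 143, 85.7 and 113 CPM with LPS. Taken one by one against naive cells, each stimulus gave 7 called members, and these were the same in all: Egr2 higher, and Egr1, Egr3, Nr4a1, Nr4a2, Ier2 and Ier5 lower. The shares of all genes called were 34.1% for CD40, 33.6% for CpG and 33.7% for LPS. The Nr4a2 call against naive failed for each stimulus when one of several libraries, naive B among them, was left out (adjusted p up to 0.127), and the Egr3 call for CpG failed without CpG library A (adjusted p = 0.0526) or CpG library C (adjusted p = 0.0603). Against GC cells each stimulus gave 5 called members, all higher and shared by all: Egr2, Nr4a2, Nr4a3, Ier2 and Ier5. There, 28.4%, 28.9% and 28.1% of all genes were called for CD40, CpG and LPS. The Nr4a3 and Ier5 calls were both lost without GC library B for every stimulus, without GC library A for CpG and LPS, and without LPS library A for LPS, which left 3.

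Within the activated libraries the letters, unlike the stimuli, separated the members. A test of the letter beside the stimulus, on the 9 activated libraries, passed for 8 of 9 members, all but Nr4a2 (adjusted p = 0.66), where 44% of all genes passed. The test of the stimulus beside the letter passed for 0 of 9, with 1 at an unadjusted p under 0.05 (Egr1, adjusted p = 0.487), where 0.502% of all genes passed. What the letters stand for is not given in the labels, and if titles and letters were exchanged these would be differences between stimuli.

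Egr3 had 7.38, 6.14 and 5.84 CPM with CD40, CpG and LPS in letter A, 26.2, 29.3 and 27.6 CPM in letter B, and 10.9, 13.1 and 10.2 CPM in letter C (adjusted p = 9.78e-11 for the letter). The 3 letters did not overlap, and the stimuli within a letter lay close together. Nab2 followed, averaging 7.68, 26.6 and 13.6 CPM in letters A, B and C (adjusted p = 1.06e-09), and Nr4a1 averaged 5.10, 13.1 and 3.78 CPM (adjusted p = 4.07e-07). Egr2 was lowest in C, at 138, 133 and 81.0 CPM in A, B and C (adjusted p = 1.29e-09), while Ier5 was lowest in B, at 144, 88.7 and 115 CPM (adjusted p = 9.58e-09). Marker lists differed by letter too. Plasma cell genes summed to 441 to 512 CPM in A, 329 to 374 CPM in B and 1956 to 3390 CPM in C, and dendritic cell genes to 76.5 to 95.9, 210.3 to 249 and 69.1 to 94.8 CPM. Follicular genes summed to 1379 to 1443 CPM in A, 587 to 648 CPM in B and 500.4 to 537 CPM in C, and GC B cell genes to 999 to 1090.1, 603 to 698 and 485 to 628 CPM. Marginal zone and B-1 genes summed to 63.9 to 76.3, 114 to 127 and 181 to 212 CPM. The part of these in the members' letter differences was not tested.

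**Figure D5:**
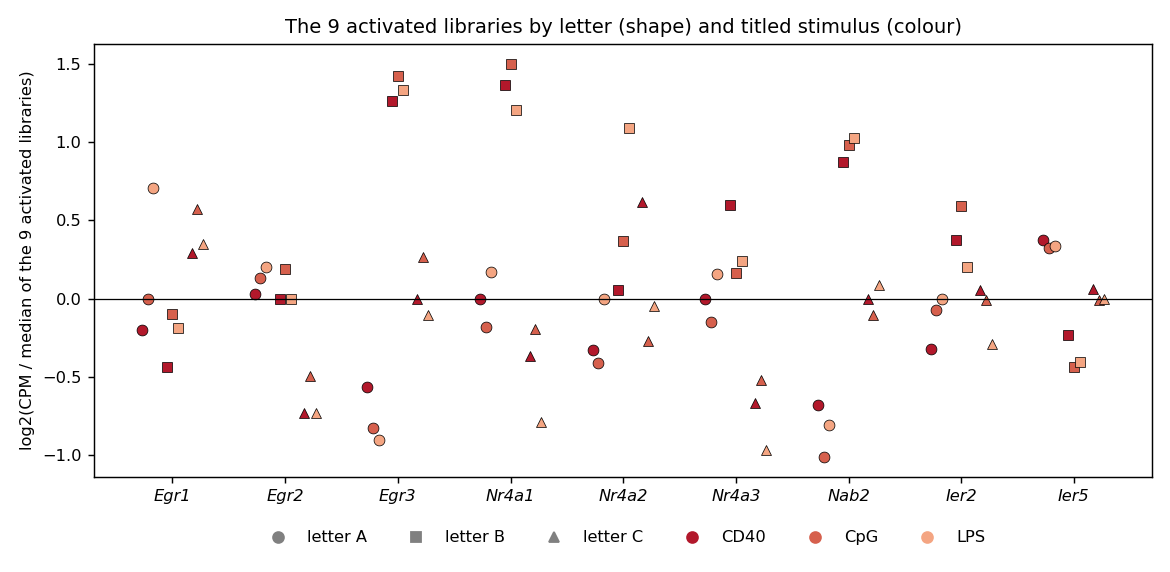
Levels of the 9 genes in the 9 activated libraries, as log2 of CPM over the median of the 9, with shape for the letter and colour for the titled stimulus. Libraries of the same letter cluster for Egr3 and Nab2, and letter C is lowest for Egr2.

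Other immediate early genes, of the AP-1 family and beyond, were mostly low where the members were. Of 17 tested, 11 were lower and 1 higher in activated than in naive cells (median log2 fold change -2.05), while GC against naive cells gave 14 lower and 1 higher (median -2.93). Over all genes, 19.4% were lower and 23.4% higher in the first comparison (median 0.17). In the other, 16.5% were lower and 17.9% higher (median 0.0031). Fos, a partner in AP-1, averaged 3.82, 133 and 1359 CPM in activated, GC and naive libraries, and Fosb averaged 0.831, 6.12 and 921 CPM. Against naive cells both passed, in activated cells at -8.65 and -10.14 and in GC cells at -3.35 and -7.23. Junb, another AP-1 partner, averaged 324, 89.2 and 1342 CPM. Fosl2, which encodes FRA2, was the exception that rose in activated cells, with 15.1 to 150 CPM in activated libraries and at most 0.769 CPM in a naive library. Gadd45b was the exception in GC cells, at 220 ± 7.58 CPM against 67.0 ± 28.5 CPM in naive cells (SD, n = 3 each). Activated against GC cells, 8 were higher and 6 lower, where 19.4% of all genes were higher and 17.7% lower.

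Among the family genes outside the 9, Egr4 and Wt1 had 0 counts in all 15 libraries, which allows up to 0.00649 CPM. Nab1, the other EGR corepressor, averaged 223 ± 73.2 CPM in activated libraries (SD, n = 9), 72.3 ± 4.1 CPM in GC and 88.9 ± 17.9 CPM in naive libraries (n = 3 each). It was higher in activated cells than in naive cells by 1.32 ± 0.31 (adjusted p = 0.00336) and than in GC cells by 1.62 ± 0.316 (adjusted p = 0.00104), unlike Nab2. Ier3 was higher in activated than in naive cells (5.49, adjusted p = 0.00139), at 2.79 to 23.2 CPM in activated against 0 to 0.605 CPM in naive libraries. Ier5l was lower in GC than in naive cells (-2.50, adjusted p = 0.0129), at 1.12 to 2.04 CPM in GC libraries against 2.64, 4.23 and 18.4 CPM in the naive ones, of which 1 lay far above the others.

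Of 21 genes that carry ERK and calcium signals to the factors named above, 3 were higher and 9 lower in activated than in naive cells, while GC against naive cells gave 1 higher and 9 lower. Over all genes the shares higher and lower were 23.4% and 19.4% in the first comparison, and 17.9% and 16.5% in the other. The median log2 fold changes of the 21 were -0.24 and -0.21, beside 0.17 and 0.0031 over all genes. Ppp3ca, a catalytic subunit of calcineurin, averaged 53.8 ± 6.94 CPM in activated, 133 ± 9.95 CPM in GC and 316 ± 12.4 CPM in naive libraries, without overlap. Elk3, which encodes a partner of serum response factor, was lower in activated than in naive cells (-2.38, adjusted p = 4.38e-07). Mef2a was higher in activated than in naive cells (1.41, adjusted p = 0.00149). Of 8 ERK feedback inhibitors, 4 were higher and 2 lower in activated than in naive cells, while GC against naive cells gave 1 higher and 3 lower. Dusp6, a phosphatase of ERK, was at 4.31 ± 2.18 CPM in activated against 98.5 ± 28.4 CPM in naive libraries (-4.55, adjusted p = 3.05e-08). Dusp5, a nuclear phosphatase of ERK, went the other way, at 277 ± 66.6 CPM in activated against 19.9 ± 13.3 CPM in naive libraries (3.80, adjusted p = 7.35e-06).

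Of 7 genes known as EGR2 and EGR3 targets in mouse lymphocytes, 2 were higher and 3 lower in activated than in naive cells, and 3 were higher and 3 lower in activated than in GC cells. Of all genes, 23.4% were higher and 19.4% lower in activated than in naive cells, and 19.4% and 17.7% in activated than in GC cells. In GC against naive cells 0 of these 7 were higher and 1, Socs3, was lower, where 17.9% of all genes were higher and 16.5% lower. The median log2 fold change of the 7 was 0.04 there, beside 0.0031 over all genes. Tnfrsf9 had the largest rise in activated over naive cells (log2 fold change 8.06) and 0 counts in the GC libraries. Socs1, an inhibitor of cytokine signalling, averaged 94.1 ± 20.7 CPM in activated against 9.49 ± 8.11 CPM in naive libraries (3.31, adjusted p = 0.000114). Cblb, a ubiquitin ligase that limits antigen receptor signalling, averaged 7.10 ± 3.39 CPM in activated against 105 ± 25.0 CPM in naive libraries (-3.89, adjusted p = 1.13e-06), and Id3 was lower by -2.86 (adjusted p = 5.1e-08). Of 5 genes that NR4A factors are known to restrain in mouse B cells, 2 were higher and 1 lower in activated than in naive cells. GC against naive cells gave 1 higher and 3 lower, where 17.9% of all genes were higher and 16.5% lower. Activated against GC cells gave 4 higher and 0 lower. Batf, an AP-1 family factor, averaged 263 ± 69.9 CPM in activated against 27.1 ± 14.2 CPM in naive libraries (3.28, adjusted p = 3.57e-06). Cd86, a costimulatory ligand, was higher than in naive cells both in activated cells (2.23, adjusted p = 8.2e-07) and in GC cells (2.26, adjusted p = 2.95e-06). Ccl3, a chemokine gene, had 0 counts in the GC libraries, and averaged 3.14 CPM in activated and 15.03 CPM in naive libraries. Myc, counted in both this and the immediate early list, was lower in GC than in naive cells (-3.03, adjusted p = 6.71e-05) and did not pass in activated against naive cells (-0.37, adjusted p = 0.352).

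The gene of all those tested whose profile lay closest to each member was found as the smallest root mean square difference of log2(CPM + 1), centred per gene, over the 15 libraries. Ier2 lay closest to Junb (0.263) and Cd69 (0.314), and Egr1 to Gm32401 (0.445) and Ppp1r15a (0.458). Egr3 lay closest to Irak2 (0.368) and Il10ra (0.466), and Nab2 to Crybg1 (0.237) and Tnfrsf13c (0.328). Nr4a1 lay closest to Rasgef1b and Mapk12 (0.661 each). Nr4a2 lay closest to Gla (0.442) and Tmcc2 (0.453), Nr4a3 to Kank3 (0.308) and Cd82 (0.323), and Ier5 to Prkce (0.191) and Ccdc125 (0.214). No member was among the closest 2 of the 8 members given.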

How the data were processed

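Reads per gene were counted by the authors. Per the submitters' processing notes, STAR 2.7.10a, featureCounts 2.0.6 and DESeq2 were used with mm10/GRCm38. The use of strand, the treatment of multiply mapped reads and the annotation release are not given in the sources used here. The deposited table holds raw counts for 54838 gene IDs in 15 libraries, with no row lacking a gene ID. Symbols came from GENCODE M21, which named 54809 IDs.

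Counts were scaled by TMM and filtered with filterByExpr, leaving 17144 genes, and an edgeR 4.0.16 quasi-likelihood model (R 4.3.3, robust) with a mean for each group was fitted to all 15 libraries. Tests were two-sided with Benjamini-Hochberg adjustment over all genes tested and a threshold of 0.05. SEs were taken from the fold change and its quasi-F value. Letter and stimulus were tested in the 9 activated libraries on 15727 genes. Alternatives were DESeq2 1.42.0, its size factors, no filter, only the libraries compared, the letter as a replicate block, each library left out and, chosen after seeing the data, each letter left out of the activated libraries. The scripts were tested on simulated data.

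The letters pair the activated libraries: deviations of same-letter libraries from their group means correlated by 0.362 to 0.495 in 9 pairs, against -0.0696 to 0.0752 across activated, GC and naive libraries, so letters do not pair libraries across those kinds of cell. Reads carry no molecular identifiers, and floors cover counting error only. The 9 genes and all lists were chosen with earlier results of these data known. From each other list, the text names up to 2 called genes per direction with the largest fold change, and some were added after their values were seen (Junb, Myc). The genes closest in profile to Egr2 are not reported here.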

Additional observations from a re-analysis of the deposited data

How the results depend on the processing

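Over the alternatives, 7 to 8 members were called in activated against naive cells, 6 to 8 in GC against naive cells, 5 to 7 in activated against GC cells, 8 for the letter and 0 for the stimulus. No fold change that passed was reversed. For single members, 1312 of the refitted group comparisons kept their side of the threshold, 48 lost it and 17 gained it. Those that kept it include all tests between stimuli, which passed in no fit, so the total overstates how stable the calls are. With one library left out, the members called against GC ranged from 3 to 5 for CD40, from 3 to 5 for CpG and from 3 to 5 for LPS. Over all alternatives the highest counts were 7, 7 and 6. DESeq2 called Nr4a3 lower in GC than in naive cells (-1.65, adjusted p = 0.0458). With only the libraries compared, Egr1 was lower in activated than in GC cells (-0.74, adjusted p = 0.00859). The cause of these changes was not tested.

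With the letter as a replicate block in the fit of 15 libraries, 8 members were called in activated against naive cells (Nab2 added, -1.01, adjusted p = 0.0364), 7 in GC against naive, 6 in activated against GC and 6 for each stimulus against GC, where the one added was Nr4a1, lower with CD40 (-1.89, adjusted p = 0.0121), CpG (-1.83, adjusted p = 0.0139) and LPS (-2.01, adjusted p = 0.00909). In the 9 activated libraries, where the letters pair the samples, the block called 0 members between stimuli and changed no call. Depth limits what can be said of Nr4a2, at 0 counts in GC cells.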
